A study of Mus musculus with 10 samples.

Results

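The genes described are those of the cytosolic ribosomal proteins in mouse liver. They were taken from the table by symbol, as every Rpl or Rps gene with a number and at most 1 letter from a, l, x and y behind it, together with Rplp0, Rplp1, Rplp2 and Rpsa, and with symbols marked as pseudogenes (-ps) left out. This gave 82 of the 47729 genes in the table, 50 of the large subunit and 32 of the small subunit. The 10 samples are livers of female mice, 5 lacking Etnppl in the whole body (KO) and 5 wild type (WT). All were given chow for 8 weeks and a high-fat diet with 45% of energy from fat for 10 weeks, so the WT group is not a lean control. Etnppl encodes ethanolamine-phosphate phospho-lyase, which breaks down phosphoethanolamine. The deletion was not restricted to a cell type, its allele is not described in the sources used here, and the labels do not say that each sample came from a separate mouse, so the spread that p-values rest on is that between samples and may be technical.

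A ribosome is built from ribosomal RNA and one set of ribosomal proteins, made in the cytosol, carried into the nucleolus and assembled there into the small subunit, which reads the mRNA, and the large subunit, which forms the peptide bond. The mRNAs of ribosomal proteins typically begin with a C followed by an unbroken run of C and T (U in the RNA), the 5′ terminal oligopyrimidine or TOP motif, through which the kinase complex mTORC1 and the RNA-binding protein Larp1 adjust their translation together. The liver makes most plasma proteins and holds many ribosomes. When assembly is disturbed, free Rpl5 and Rpl11 bind Mdm2 and thereby stabilise p53.

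The sequences around the annotated transcript starts give examples with and without this motif at the annotated start. RefSeq windows (GRCm38.p6) were matched by symbol for 57 of the 77 expressed protein-coding members. Each sequence runs from 15 bases before the annotated start to 15 bases from it, 5′ to 3′ on the gene's strand, so the annotated start is the 16th base, and capitals mark the longest run of C and T. Rps27 was the most abundant member, and it, Rps6, Rps18, Rplp2 and Rpl14 have a C-led run from the annotated start. Rpl14 and Rps24 belong to the 6 members of lowest p among those with lower KO values, and Rps27l and Rpl22 are the pair with an unadjusted p under 0.05.
Rps27, chr3:90213634-90213663, minus strand: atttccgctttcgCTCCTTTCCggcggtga
Rps6, chr4:86857353-86857382, minus strand: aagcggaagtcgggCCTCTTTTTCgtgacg
Rps18, chr17:33955651-33955680, minus strand: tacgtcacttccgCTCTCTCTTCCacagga
Rplp2, chr7:141447636-141447665, plus strand: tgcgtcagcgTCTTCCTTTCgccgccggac
Rpl14, chr9:120571502-120571531, plus strand: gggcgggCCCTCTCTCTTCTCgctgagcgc
Rps24, chr14:24490663-24490692, plus strand: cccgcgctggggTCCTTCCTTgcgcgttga
Rps27l, chr9:66946071-66946100, plus strand: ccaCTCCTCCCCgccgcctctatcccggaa
Rpl22, chr4:152325711-152325740, plus strand: ttcgCCCTgggaaaagcaatagctggccga

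A C at the annotated start followed by at least 4 more C or T was found in 12 of the 57 windows (21.1%), against 2.47% of the 27025 genes with a window. Within 5 bases on either side of the annotated start such a run began in 27 (47.4%, against 18.4% of the 27025), and within 20 bases in 44 (77.2%, against 49.5%). The 27025 genes were not limited to expressed or protein-coding genes, as the 57 are. The part of this in the differences given here was not tested. Annotated starts are often a few bases off the true start, so these shares describe the annotation. The letters CTTTCC, on the plus strand from 20 bases before to 50 after the start, were in 15 windows (26.3%, against 3.26%), and CTCTTTC in 11 (19.3%, against 0.921%). Both overlap the C and T runs and can overlap each other. Over the whole window of 250 bases before to 50 after the start, on either strand, CCGGAA, the core that ETS factors such as GABPA bind, was in 29 windows (50.9%, against 15.3%), GGGCGG, an Sp1 core, in 34 (59.6%, against 36.0%), and TATAAA in 5 (8.77%, against 14.2%). The letters AAGATGGC, known from YY1 sites, were in 4 (7.02%, against 2.88%). The printed window of Rps27l has its longest run before the annotated start. A shorter C-led run begins within 5 bases of that start, so Rps27l is among the 27. The printed window of Rpl22 has no run of 5 or more. In GENCODE M21 the Rpl22 gene starts at chr4:152325742, past the end of that window.

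Values are FPKM, fragment numbers scaled by transcript length and by the fragments mapped in the library. The scale is meant to set genes of different length side by side, but how length was counted is not stated. With mean fragments estimated at 240 to 252 bases, the values of the shortest mRNAs depend most on it. Of the 82 members, 79 averaged 0.5 FPKM or more across libraries and were tested. Rpl10l, a retrocopy of Rpl10 known from testis, was listed at 0 in all 10 libraries. Rpl39l, another paralog known from testis, was listed at 0 in 9 libraries and at 0.08 FPKM in WT 5. Rpl3l, the paralog of Rpl3 that is used in striated muscle, lay between 0 and 0.17 FPKM. Among the 79, Rps4l and Rpl6l are annotated as processed pseudogenes in GENCODE M21 although their symbols carry no such mark, which leaves 77 protein-coding members, 46 of the large and 31 of the small subunit. These lie on 19 chromosomes, 14 of them on chromosome 7 and 4 (Rpl10, Rpl36a, Rpl39 and Rps4x) on X. Their annotated mRNAs are mostly short, from 345 to 5130 bases with a median of 771 bases against 2529.75 bases for all tested genes with a length.

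Although the proteins are used in nearly fixed proportion, their mRNA levels spanned a 20.74-fold range, from a mean of 43.52 FPKM for Rps20 to 902.4 FPKM for Rps27 (all 10 libraries), with a median of 225.8 FPKM. The ends of this range also differ in annotated mRNA length, at 3706 bases for Rps20 and 345 bases for Rps27, so the range depends on the lengths used for FPKM. Most were close together, with 68 of the 77 between 100 and 500 FPKM. The 5 highest were Rps27 (902.4 FPKM), Rpl10 (623.2 FPKM), which is added late in assembly of the large subunit, Rplp1 (588.3 FPKM), Rps2 (491.3 FPKM) and Rps15 (488.4 FPKM). The 6 under 100 FPKM were Rps20, Rplp2, Rpl37, Rpl35, Rpl39 and Rpl30. The acidic proteins Rplp1 and Rplp2 pair with each other on the stalk that recruits elongation factors, yet in WT the mRNA of Rplp1 was at 581.4 ± 45.9 FPKM and that of Rplp2 at 59.5 ± 13.6 FPKM (mean ± SD, n = 5), with their base Rplp0 at 224.2 ± 21.3 FPKM. The annotated mRNAs of Rplp1 and Rplp2 are short, at 499 and 449 bases, and the part of the length used in this contrast was not tested. Small-subunit members had a median of 275.5 FPKM and large-subunit members 214.4 FPKM.

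**Figure D1:**
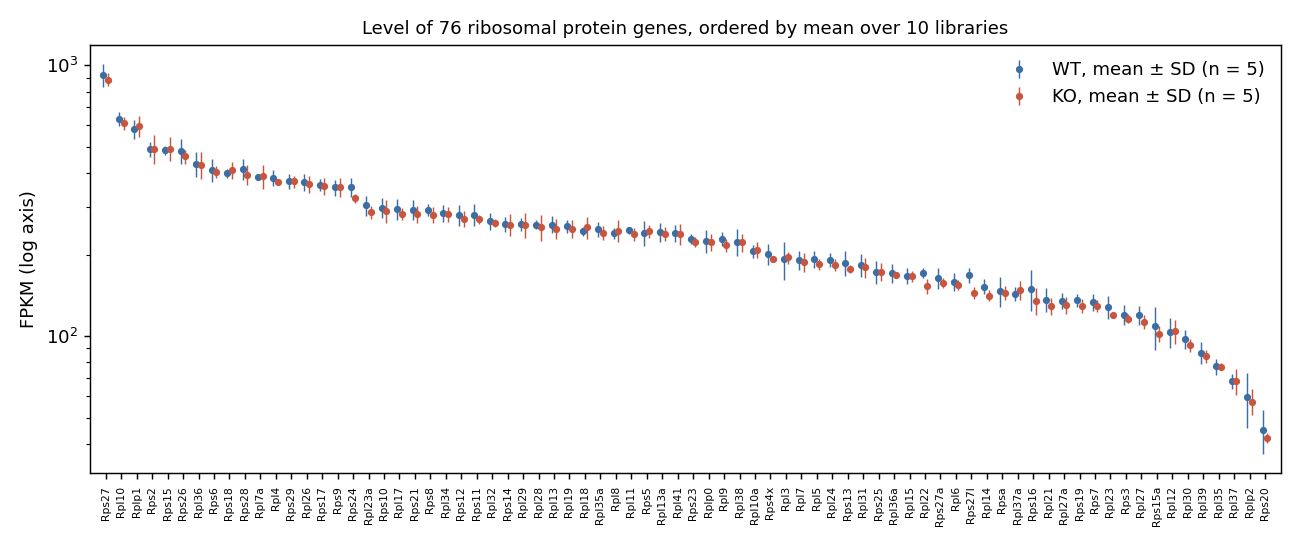
Level of 76 of the 77 protein-coding members in FPKM (vertical log axis), each gene placed by its mean over 10 libraries, with WT (blue) and KO (red) shown as mean ± SD of 5 libraries. Members run from Rps27 at 902.4 FPKM to Rps20 at 43.52 FPKM.

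Members took 2.64 ± 0.149% of all FPKM in the WT livers and 2.60 ± 0.128% in the KO livers (mean and SD over 5 libraries). Their summed level was 18865.1, 21636.1, 18443.7, 18579.5 and 19255.6 FPKM in WT 1 to WT 5. In KO 1 to KO 5 it was 18308.8, 20535.1, 18445.2, 18061.1 and 19241.0 FPKM. The groups overlapped, and in each the library numbered 2 was the highest. The small to large subunit ratio of summed FPKM was 0.862 ± 0.00636 in WT and 0.855 ± 0.0140 in KO.

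Of the whole series, the following bears on the comparison. Etnppl was at 27.57 to 56.55 FPKM in the WT and 7.36 to 10.19 FPKM in the KO livers, so every library followed its label for the targeted gene. The steps between low values put the depth at 20600000 to 27600000 fragments per library. Albumin was at 35219.5 to 47251.8 FPKM, and of the 8 hepatocyte markers matched out of 9, all were tested, 7 had a higher KO mean and 2 (Cps1 and Ahsg, both higher) had an unadjusted p under 0.05. Of all tested genes, 2.69% were higher and 9.07% lower at that threshold (limma), and 65.1% had a fold change below 0. Pancreatic acinar markers summed to 2.64 to 4.08 FPKM in the WT and up to 157.1 FPKM in the KO livers, the maximum being KO 3. Markers of Kupffer cells, sinusoidal endothelium, stellate cells, lymphocytes, cholangiocytes, erythroid cells and neutrophils had 0 genes at an unadjusted p under 0.05. Their fold changes above and below 0 numbered 1 and 8 for Kupffer cells and 0 and 6 for stellate cells. They numbered 3 and 3 for sinusoidal endothelium, 2 and 4 for lymphocytes and 1 and 3 for cholangiocytes. For erythroid cells they numbered 1 and 4, and for neutrophils 0 and 2. The adipose marker leptin was at 0 in all libraries. In whole tissue, fewer cells of a type and less RNA per cell cannot be told apart.

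In the KO against WT comparison, which asks whether the ribosomal protein mRNAs of the liver differ with Etnppl genotype, none of the 79 tested members passed an adjusted p of 0.05 (limma, Benjamini-Hochberg over 12395 genes), where 8 genes in all passed (0.0645%). The lowest adjusted p among members was 0.207, for Rps27l. At an unadjusted p under 0.05, 0 of 79 were higher in KO, against 2.69% of all genes, and 2 (2.53%) were lower, against 9.07% of all genes. No member had groups that did not overlap, against 2.21% of all genes for lower and 0.581% for higher KO values. The protein-coding members had KO means of 86.1% to 103.5% of their WT means, with a median of 97.4%, and 72 of the 77 had a fold change under 0.1 on the log2 scale.

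The intervals were narrow for these genes. The 95% confidence interval of the fold change lay within 1.2-fold in both directions for 70 of 77 members (90.9%), against 25.9% of all tested genes and 54.3% of the 1385 genes that averaged 50 FPKM or more. It lay within 1.5-fold for all 77, against 85.9% and 91.7%. The 7 of these 77 with an interval that passed 1.2-fold were Rps27l, Rpl22, Rps24, Rps16, Rps20, Rps15a and Rplp2. Changes beyond 1.5-fold in either direction thus lay outside the interval of every protein-coding member, while smaller ones lay inside some. The intervals of the tested pseudogenes were wider, from 0.882-fold to 1.88-fold for Rps4l and from 0.691-fold to 1.007-fold for Rpl6l.

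**Figure D2:**
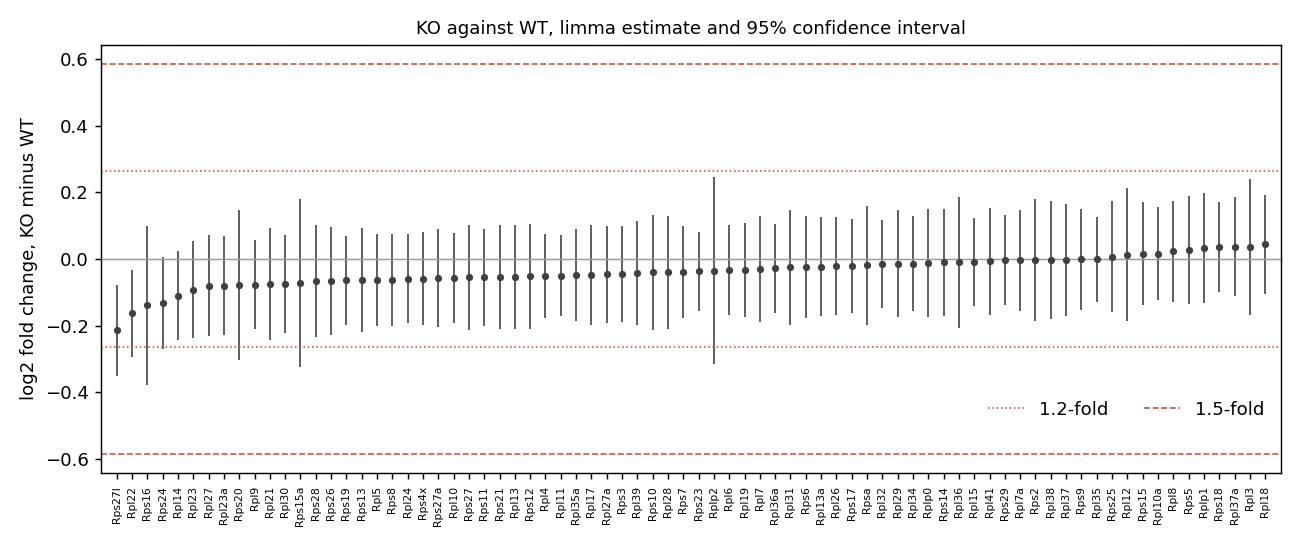
Fold change of 76 of the 77 protein-coding members on the log2(FPKM + 0.5) scale, KO minus WT, with its 95% confidence interval (bars), ordered by estimate. Dotted and dashed lines mark 1.2-fold and 1.5-fold, and all intervals drawn lie inside the dashed lines.

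The direction of the members as a group depended on the scaling and on whether WT 2 alone was left out. The fold change was below 0 for 66 of 79 (83.5%), against 65.1% of all genes, and the median log2 fold change was -0.037 for members and -0.050 for all genes. Under median-of-ratios scaling, 51 of 79 were above 0 and the median was 0.016, with that of all genes at -0.004. Without WT 2, 43 of 79 were above 0 and the median was 0.0055. Without KO 2, 3 were above 0 and the median was -0.063. Without both libraries numbered 2, a setting chosen after seeing the data, 24 were above 0 and the median was -0.018. Rescaling to TPM, quantile normalization and totals without ribosomal protein genes or the top 50 genes left 24 to 28 above 0. Without KO 3, the library with pancreatic markers, 25 were above 0 and the median was -0.030. Large-subunit members had a median of -0.028 (8 above and 38 below 0) and small-subunit members -0.052 (4 above and 27 below 0).

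Rps27l, the paralog of Rps27 and a known p53 target gene, was at 149.77, 165.70, 179.83, 170.75 and 172.69 FPKM in WT 1 to WT 5. In KO 1 to KO 5 it was at 147.36, 133.58, 142.82, 151.56 and 146.51 FPKM. The lowest WT library lay below the highest KO library, and the other 4 KO libraries lay below all WT libraries. Its log2 fold change was -0.21 (SE 0.063, limma unadjusted p = 0.0048, adjusted p = 0.207), and it did not pass. Its value was 18.4 ± 2.22% of that of Rps27 in WT and 16.4 ± 1.54% in KO. Rps27 itself, at 903.50, 1072.51, 893.44, 837.28 and 897.17 FPKM in the WT and 881.76, 967.65, 858.79, 844.16 and 867.42 FPKM in the KO livers, overlapped widely between the groups.

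Rpl22, a large-subunit protein that the ribosome can do without and that also binds RNA elsewhere, was at 161.60, 176.97, 167.30, 179.13 and 170.17 FPKM in WT. In KO it was at 152.52, 154.15, 168.86, 145.88 and 143.28 FPKM, with KO 3 inside the WT range and the other 4 below it. Its log2 fold change was -0.16 (SE 0.060, limma unadjusted p = 0.019, adjusted p = 0.307). Its paralog Rpl22l1, known to be repressed by Rpl22 and taken by a list outside the symbol rule, was at 29.9 ± 6.82 FPKM in the WT and 30.5 ± 3.40 FPKM in the KO livers, with the individual libraries between 23.59 and 37.92 FPKM in the WT and between 25.47 and 33.93 FPKM in the KO livers.

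The other members of lowest p with lower KO means were Rps24 (353.8 ± 28.5 against 322.2 ± 11.5 FPKM, WT against KO), Rpl6l (2.30 ± 0.349 against 1.84 ± 0.338 FPKM), Rpl14 (152.4 ± 9.97 against 141.1 ± 6.50 FPKM) and Rpl23 (128.3 ± 12.6 against 119.9 ± 2.56 FPKM). Rps24 has a role in maturing the small-subunit RNA and, like Rps19, is a gene of Diamond-Blackfan anaemia. Adjusted p lay between 0.436 and 0.632 for these 4 (limma). Members of lowest p with higher KO means included Rps4l, Rpl18, Rps18, Rpl37a and Rplp1. Rps4l, a processed copy of the X-linked Rps4x, ranged from 6.72 to 17.45 FPKM in the WT and from 10.57 to 19.01 FPKM in the KO livers (log2 fold change 0.36, SE 0.247, limma adjusted p = 0.6). Rpl18 had a log2 fold change of 0.04 (limma adjusted p = 0.841).

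**Figure D3:**
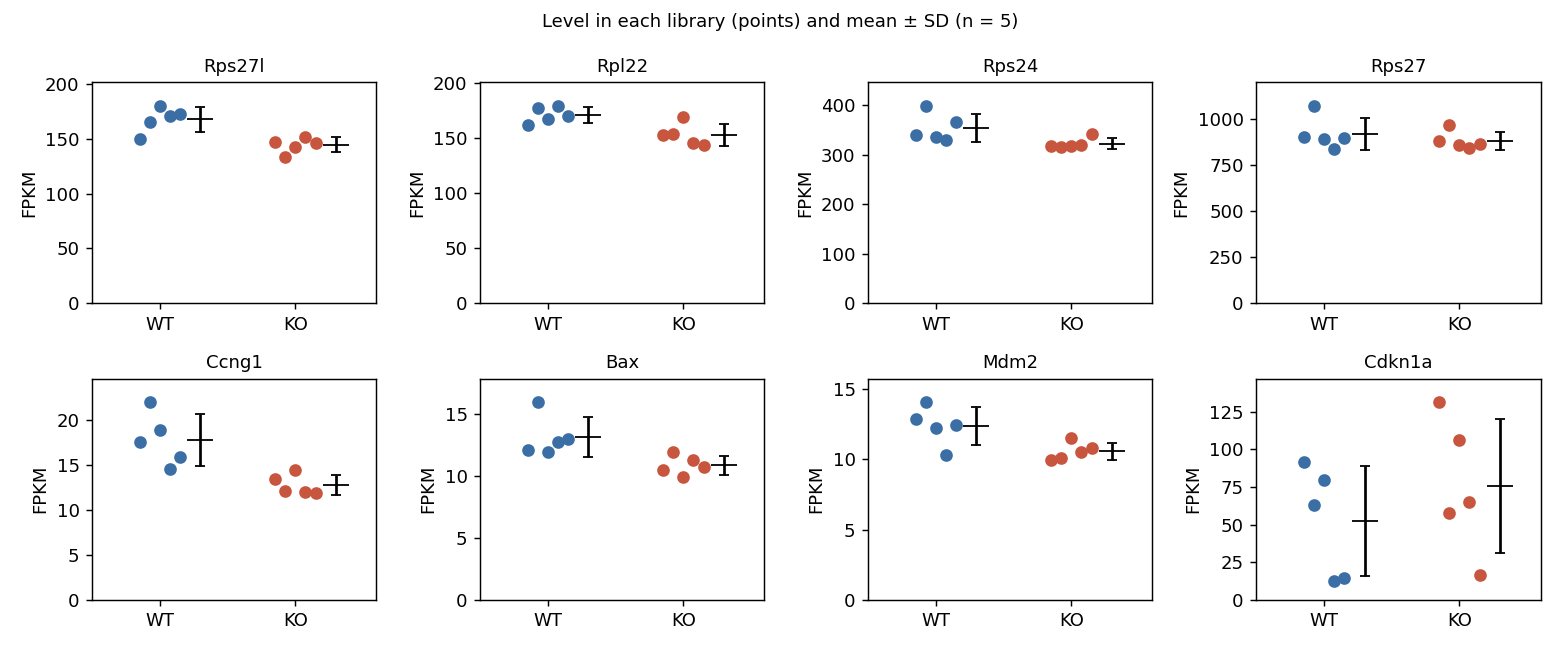
FPKM of Rps27l, Rpl22, Rps24, Rps27 and of the p53 target genes Ccng1, Bax, Mdm2 and Cdkn1a in each library (points, numbered 1 to 5 from left to right within a group) with the group mean ± SD (n = 5). The vertical axis starts at 0; Rps27l lies at 133.58 to 151.56 FPKM in the KO livers against 149.77 to 179.83 FPKM in WT.

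Members with roles beyond structure showed small differences. Rps6, the S6 kinase substrate downstream of mTORC1, was at 414.17, 476.71, 386.61, 378.06 and 400.54 FPKM in the WT and 391.31, 439.92, 394.38, 400.76 and 389.74 FPKM in the KO livers, with overlapping groups. Rpl5 was at 192.3 ± 14.2 FPKM in the WT and 183.9 ± 8.57 FPKM in the KO livers, and Rpl11, its partner in binding Mdm2, at 245.7 ± 7.43 and 237.6 ± 13.2 FPKM. Rpl13a, which takes part in silencing of inflammatory transcripts, was at 242.1 ± 19.6 and 238.0 ± 14.2 FPKM. Rps19, the gene most often mutated in Diamond-Blackfan anaemia, was at 135.4 ± 7.74 and 129.5 ± 7.58 FPKM. Rpl3, at the peptidyl transferase centre, was at 191.8 ± 30.6 and 195.1 ± 9.84 FPKM. Rpsa, also a laminin receptor, was at 146.8 ± 18.3 and 144.2 ± 8.32 FPKM. Rps27a, which is made as a fusion with ubiquitin, was at 164.1 ± 14.7 and 157.2 ± 7.05 FPKM, Rps4x at 201.5 ± 17.7 and 192.9 ± 4.84 FPKM, Rpl39 at 86.8 ± 8.23 and 84.1 ± 4.39 FPKM and Rpl41 at 239.3 ± 17.3 and 238.3 ± 21.2 FPKM. The adjusted p of each named in this paragraph was at least 0.728 (limma).

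Members also varied together between libraries of a group. WT 2 was the highest WT library for 70 of the 77 members, and KO 2 the highest KO library for 54. On the log2 scale the 77 members lay on average 0.167 above their group mean in WT 2 and 0.108 above it in KO 2, and between -0.076 and 0.020 in the other 8 libraries. This shift, common to the members of a library, made up 55.05% of the members' variance within groups. With the shift left in, the members' median within-group SD was 0.102 on the log2 scale, against 0.123 for genes of at least 50 FPKM. After the shift was taken out it was 0.062 for the members. No shift was taken out for the other genes, so that value has no counterpart. Of other housekeeping mRNAs, short respiratory chain subunits lay 0.026 above their group mean in WT 2 and 0.018 in KO 2, proteasome core subunits lay -0.047 and 0.032 from it, and the longer mRNAs of ribosome assembly factors (median 2753 bases) -0.003 and 0.012. Genes of the TOP list lay 0.131 and 0.068 above it, and ribosomal proteins outside the symbol rule 0.147 and 0.054. Genes of mTORC1 signalling lay 0.126 and 0.022 above it, small nucleolar RNA hosts 0.090 and 0.110, and genes of p53 and its response 0.293 and 0.068. Mitochondrial ribosomal proteins lay 0.035 and 0.045 above it, and other translation factors 0.019 and -0.013 from it. All tested genes lay 0.038 and 0.015 above it. Erythroid markers lay 0.542 and 0.212 above the group mean there, and lymphocyte markers 0.315 and 0.167. Kupffer cell markers lay 0.197 and 0.151 above it and cholangiocyte markers 0.187 and 0.157. Stellate cell markers lay 0.336 and -0.058 from it, sinusoidal endothelial markers 0.123 and -0.021, hepatocyte markers 0.105 and 0.001 and neutrophil markers -0.143 and -0.347. Erythroid markers summed to 433.7 to 789.0 FPKM in the WT and 448.9 to 597.4 FPKM in the KO livers, and the part of these cell types in the shift was not tested.

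**Figure D4:**
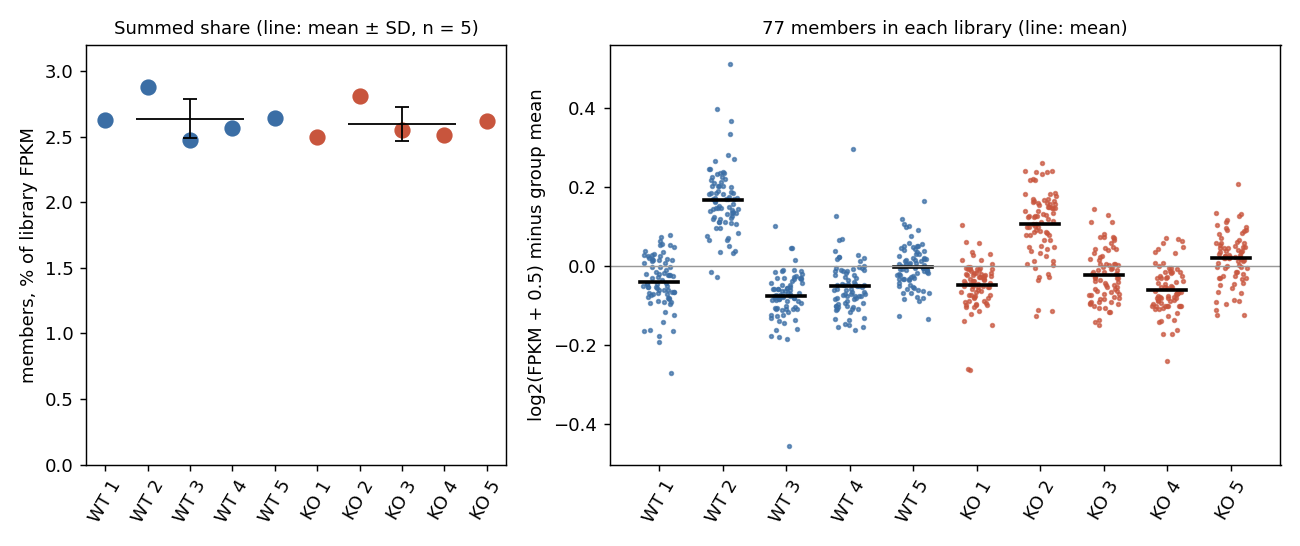
Left, members as a percent of the library's FPKM (points, with mean ± SD, n = 5). Right, log2(FPKM + 0.5) of each of the 77 members minus its group mean (points) and the library mean (line), in which WT 2 lies at 0.167 and KO 2 at 0.108.

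The remaining ribosomal protein genes and the machinery around them were taken from lists, of which no member passed an adjusted p of 0.05 (limma). The counts given for each list are of genes higher or lower in KO at an unadjusted p under 0.05, for which all genes gave 2.69% higher and 9.07% lower. That background depends on the scaling, being 5.28% higher and 5.10% lower under median-of-ratios scaling and 5.20% and 5.48% under quantile normalization. Ribosomal proteins and ribosome-bound proteins outside the symbol rule (among them Fau, Rps3a1, Rack1, Rpl7l1, Rpl22l1 and Rpl36al) had 0 of 7, with Rps3a1 at 314.2 ± 20.3 FPKM in the WT and 296.4 ± 4.69 FPKM in the KO livers. Mitochondrial ribosomal proteins, which serve a separate ribosome, had 0 higher and 7 lower of 77, the lowest p being those of Mrpl50 (20.9 ± 1.74 against 16.7 ± 1.30 FPKM), Mrpl33 and Mrpl32.

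The list of translation factors and other genes with a TOP start had 0 higher and 1 lower of 20, the histone chaperone Nap1l1, at 34.4 ± 2.91 FPKM in the WT and 27.8 ± 2.12 FPKM in the KO livers (limma adjusted p = 0.143). Other factors of translation had 0 higher and 3 lower of 22, led by Eif4g2, a scaffold used in initiation without the cap, which was at 163.2 ± 6.72 and 139.2 ± 5.22 FPKM (limma adjusted p = 0.142). The others were Eif2s2, an initiation factor subunit, and Etf1, the termination factor. Of 16 genes of mTORC1 signalling, 2 were lower and 0 higher at an unadjusted p under 0.05, while the fold change was above 0 for 8 and below 0 for 8. These were Rheb, the small GTPase that activates mTORC1, at 18.50, 24.55, 19.41, 23.40 and 22.32 FPKM in the WT and 17.31, 15.04, 17.70, 16.92 and 18.44 FPKM in the KO livers (log2 fold change -0.33, SE 0.088, limma adjusted p = 0.178), and Deptor, an mTOR inhibitor, at 22.0 ± 2.03 and 19.4 ± 0.716 FPKM. The highest KO library for Rheb lay below the lowest WT library, as it did for Eif4g2, Nap1l1 and 2.21% of all tested genes. Ddit4, which restrains mTORC1, was at 2.07 to 6.30 FPKM in the WT and 3.47 to 11.34 FPKM in the KO livers (limma adjusted p = 0.450).

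Assembly factors had 1 higher and 2 lower of 42: Mybbp1a, a nucleolar repressor of transcription, at 16.0 ± 1.61 FPKM in the WT and 18.4 ± 0.878 FPKM in the KO livers, Gnl3, a nucleolar GTPase, at 13.97 ± 2.12 and 10.18 ± 1.002 FPKM (limma adjusted p = 0.143), and Sbds, which frees the new large subunit of Eif6, at 36.8 ± 1.86 and 32.4 ± 2.80 FPKM. Among 10 host genes of small nucleolar RNAs, many of which share the TOP start, 4 were lower (Snhg1, Snhg20, Snhg5 and Gas5) and 0 higher at an unadjusted p under 0.05, with 8 fold changes below and 2 above 0, and their median log2 fold change was -0.11, against -0.050 for all genes. The proteasome core had 0 higher and 2 lower of 14, and short respiratory chain subunits 0 of 41. Under median-of-ratios scaling the counts, higher and lower, were 2 and 5 for mitochondrial ribosomal proteins, 0 and 1 for the TOP list, 0 and 1 for other translation factors, 1 and 1 for mTORC1 signalling, 3 and 1 for assembly factors, 0 and 2 for small nucleolar RNA hosts and 0 and 0 for the proteasome core.

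Genes of p53 and its response had 0 higher and 3 lower of 10 tested: Ccng1 and Mdm2, which feed back on p53, and Bax, which promotes apoptosis. Ccng1 was at 17.54, 21.94, 18.85, 14.54 and 15.83 FPKM in the WT and 13.40, 12.14, 14.39, 11.95 and 11.89 FPKM in the KO livers (log2 fold change -0.45, SE 0.104, limma adjusted p = 0.140). All 5 KO libraries lay below all WT libraries for Ccng1, by a margin of 14.39 against 14.54 FPKM, and 2.21% of all tested genes had such a separation. Bax was at 11.95 to 15.96 FPKM in the WT and 9.95 to 11.93 FPKM in the KO livers, and Mdm2 at 10.33 to 14.06 and 9.97 to 11.50 FPKM. Under median-of-ratios scaling 2 of the 10 were lower and 0 higher. The fold change was below 0 for 8 of the 10 and above 0 for 2, Cdkn1a and Zmat3. Cdkn1a, the cell cycle inhibitor p21, was at 91.64, 62.99, 79.47, 12.64 and 14.52 FPKM in the WT and 131.24, 57.91, 106.37, 65.09 and 16.33 FPKM in the KO livers, with widely overlapping groups (log2 fold change 0.66, SE 0.761, limma adjusted p = 0.774), and Zmat3 had a log2 fold change of 0.04. Like Rps27l, none of the 10 passed the adjusted threshold.

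Processed copies bear on how fragments could be assigned. The table names 269 pseudogenes of 58 members, as many as 22 for Rpl31. Of these, 180 were listed at 0 in every library and 24 were tested, of which 1 had an unadjusted p under 0.05 and the lowest adjusted p was 0.399. Rpl36a-ps3 was highest, at 31.9 ± 2.50 FPKM in the WT and 29.3 ± 3.66 FPKM in the KO livers, and the copies of Rpl36a together reached 18.4% of its level, the largest share. Fragments shared by a member and its copies may have been split by the counting, so single values, such as those of Rps4l and Rpl6l, are uncertain to that extent.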

How the data were processed

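The values are FPKM as deposited by the authors, for 47729 genes and 10 libraries; 2 unnamed, empty columns were passed over. The submitters' processing notes name mm10, STAR, RSEM, DESeq2 and R 4.0.2, while which step used which, the annotation, filters and strand setting are not stated in these sources. FPKM depends on the library total and on the transcript length used. The genotype in the labels set the groups. Log2(FPKM + 0.5) of the 12395 genes averaging 0.5 FPKM or more was tested with limma 3.58.1 in R 4.3.3 (trend, robust prior, two-sided, Benjamini-Hochberg, threshold 0.05), and p-values were adjusted over all genes. Intervals are at 95%. Members and lists were chosen with earlier results of these data known, so lists are given as counts and medians. Named were Etnppl, the 6 members of lowest p in each direction, the 5 highest, the 4 largest changes, fixed members, members below the filter and up to 3 genes of lowest p per list; Rps16, Rps20, Rps15a, Rpl30, Rpl35, Rpl36a, Rpl37, Rpl22l1, Rpl31, Rpl36a-ps3, Gas5, Cdkn1a and Zmat3 were added after their values were seen. A few named-gene results are not reported here. Depth was estimated from steps of low values, of which 93.7% to 97.4% came within 0.1 of a whole fragment. On simulated data for this comparison over 12395 genes, recovery was 12% for 1.2-fold changes, 61.6% at 1.5-fold and 87.2% at 2-fold, with 5.56% false calls. Alternatives were other pseudocounts, filters, scalings, priors, weights, the replicate number as a block and each library left out; leaving out both libraries numbered 2 and rescaling without mitochondrial transcripts were chosen after seeing the data. Coordinates are from GENCODE M21 and RefSeq (GRCm38.p6). Plots used matplotlib 3.10.9 in Python 3.11.15.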

Additional observations from a re-analysis of the deposited data

Results flagged for a closer look

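In 78 groups of 5 libraries (the members named and above the filter, the members' summed FPKM and their share of the library, in each genotype), 10 had 1 library far from the other 4, relative to the range of the group. Chance alone gives such a gap in about 1 in 20 groups, and members share their libraries, so these are not separate events. Some members, Rps16 and Rpl31 among them, were added after their values were seen, so not all groups were chosen beforehand. In WT 2 the value was far above the other WT libraries for Rplp2 (83.59 FPKM), Rps15 (518.54 FPKM), Rps16 (194.96 FPKM), Rpl31 (214.48 FPKM), Rps27 (1072.51 FPKM), Rps27a (189.35 FPKM) and the summed FPKM of the members (21636.1 FPKM). In KO 2 it was far above the other KO libraries for Rps6 (439.92 FPKM). In KO 5 it was far above the other KO libraries for Rps24 (342.55 FPKM), and in WT 4 it was far below the other WT libraries for Rpl18 (228.04 FPKM).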

How the results depend on the processing

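No member and no gene of the pathway lists passed the adjusted threshold under any of the 25 alternatives, with the lowest adjusted p among members between 0.187 and 0.460. The number of members at an unadjusted p under 0.05 was 2 and became 1 under median-of-ratios scaling, 3 without trend and robust prior, 3 with the replicate block, 3 with totals without mitochondrial transcripts and 2 to 3 with 1 library left out. The number of genes called, 8, became 5 without a filter, 5 without trend and robust prior, 18 with array weights and 4 to 18 with 1 library left out, the 18 being without WT 2; the cause was not tested. With the replicate number as a block, 5 genes and no member were called; r between deviations of same-numbered libraries was -0.025 to 0.204 over all genes and -0.326 to 0.493 across members, not above 0.1 in every pair, and not every library correlated best with its own number, so the number was not taken as a pairing. These r leave out a shift common to all members, and the members' mean was highest in the library numbered 2 of both groups. The members' median log2 fold change lay between -0.044 and 0.016, and between -0.063 and 0.0055 with 1 library left out. Median-of-ratios scaling also moved all genes at an unadjusted p under 0.05 from 334 higher and 1124 lower to 655 higher and 632 lower, and quantile normalization to 645 and 679. Rps27l (-0.25 to -0.16) and Rpl22 (-0.20 to -0.11) kept a negative log2 fold change under all 25. So did Rpl5, Rpl10, Rpl14, Rpl23, Rpl6l, Rps19, Rps24, Rps27a and Rps4x among the other named members. All alternatives reuse the same libraries. On simulated data over all tested genes, 12% of 1.2-fold changes were recovered. This share is not that of the members, because their intervals were narrower. Intervals lay within 1.2-fold for 90.9% of the protein-coding members, against 25.9% of all tested genes. Recovery among members alone was not tested, and a 1.2-fold change in a single member could still be missed.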
